A study of Mus musculus with 4 samples.

Results

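The DNA damage repair genes described here are 47 mouse genes chosen by name for their part in mending DNA or in signalling that it is damaged. Each gene was read from the probe sets whose only gene symbol is that gene, averaged per gene, which gave values for 45 of the 47, out of 19938 genes measured in this way. Xrcc2 and Trp53 had no such probe set and are not analysed here. The 45 genes fall into 7 routes: homologous recombination with 11 genes, the Fanconi pathway with 7, mismatch repair with 3, base excision and single-strand break repair with 7, nucleotide excision repair with 5, end joining with 4 and damage signalling with 8.

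Total RNA of 4 mouse samples was measured, with 1 array for each. Mouse embryonic fibroblasts (MEF) are the somatic sample, grown with serum and without a feeder layer per the labels. The induced pluripotent stem (iPS) lines 178B5 and 492B4, and the MEF, had a mixed genetic background of DBA/2, C57BL/6 and 129S4, while the embryonic stem (ES) line v6.5 was an F1 of 129 and C57BL/6. All 3 pluripotent lines grew on SNL cells, a fibroblast feeder line made resistant to puromycin and stopped from dividing with mitomycin C, and the labels do not say whether feeders were removed before RNA was taken. Each array stands for 1 culture of 1 line, so p-values measure only the spread between these samples. The deposited values are differences between arrays, not levels, so no gene's abundance is set against another's, and values below are log2 differences from the MEF array, with the log base taken as 2. Medium and feeders differ between MEF and all 3 lines, and strain between ES and the other samples, so these and cell type cannot be told apart.

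All 11 markers of pluripotent cells were called higher in the lines, with medians of 5.97 log2 in iPS 178B5, 5.96 log2 in iPS 492B4 and 6.07 log2 in ES. All 11 measured fibroblast markers lay below MEF in every line, with medians of -4.35, -4.92 and -2.90 log2 in the same order, so the ES array lay closer to MEF in these genes. Of 9 macrophage markers 0 were called in limma's test (5 at an unadjusted p under 0.05), and 8 had a mean difference below 0. In iPS against MEF 2 of them were called, Cd68 higher at 2.83 log2 and Lyz2 lower at -2.20 log2. Of 7 endothelial markers 1 was higher (Pecam1, at 4.23 log2) and 2 were lower (Erg, at -1.93 log2, and Emcn, at -1.89 log2). Of 9 primitive endoderm markers 0 were called in limma's test over the 3 lines (1 at an unadjusted p under 0.05) and 4 in iPS against MEF, with medians of 1.52, 0.82 and -0.21 log2 in the same order. The ES array differed from MEF in such endoderm markers too, with Lama1 at 2.44 log2 and Dab2 at -1.32 log2. In whole cultures, fewer cells of a type and less RNA per cell cannot be told apart.

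Cells mend DNA by several routes that share a common alarm. Homologous recombination copies an intact sister strand across a double-strand break, the Fanconi pathway unhooks crosslinked strands and hands the break to recombination, and end joining ligates broken ends directly. Mismatch repair corrects replication errors, and the excision routes remove single damaged bases or bulky lesions. Recombination and Fanconi repair act mainly in S and G2 phase, and mouse pluripotent cells are known for short G1 phases and frequent use of homologous recombination.

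Most repair genes were higher in the pluripotent lines than in fibroblasts. Of the 45 genes 24 (53.3%) rose and 2 (4.44%) fell in the 3 lines against MEF in limma's moderated test, at a Benjamini-Hochberg adjusted p under 0.05 over all genes and a difference of at least 1 log2. Of all 19938 genes 7.90% were called higher and 9.71% lower by the same rule, 17.6% in all. The median over the 45 genes was 1.38 log2, beside -0.10 log2 over all genes. MEF lay below every line in 37 of the 45 genes and above every line in 2, while for all genes these shares were 30.1% and 47.7%. A further 5 genes had an adjusted p under 0.05 but stayed below the minimum of 1 log2: Pms2, Xrcc1, Xpc, Prkdc and Atm. Without iPS 178B5 18 genes were called, all higher, because Brca2, Bard1, Palb2, Fancb, Msh3, Mdc1 and both falls (Ercc1 and Xpa) then missed the threshold, with adjusted p between 0.0521 and 0.122.

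**Figure D1:**
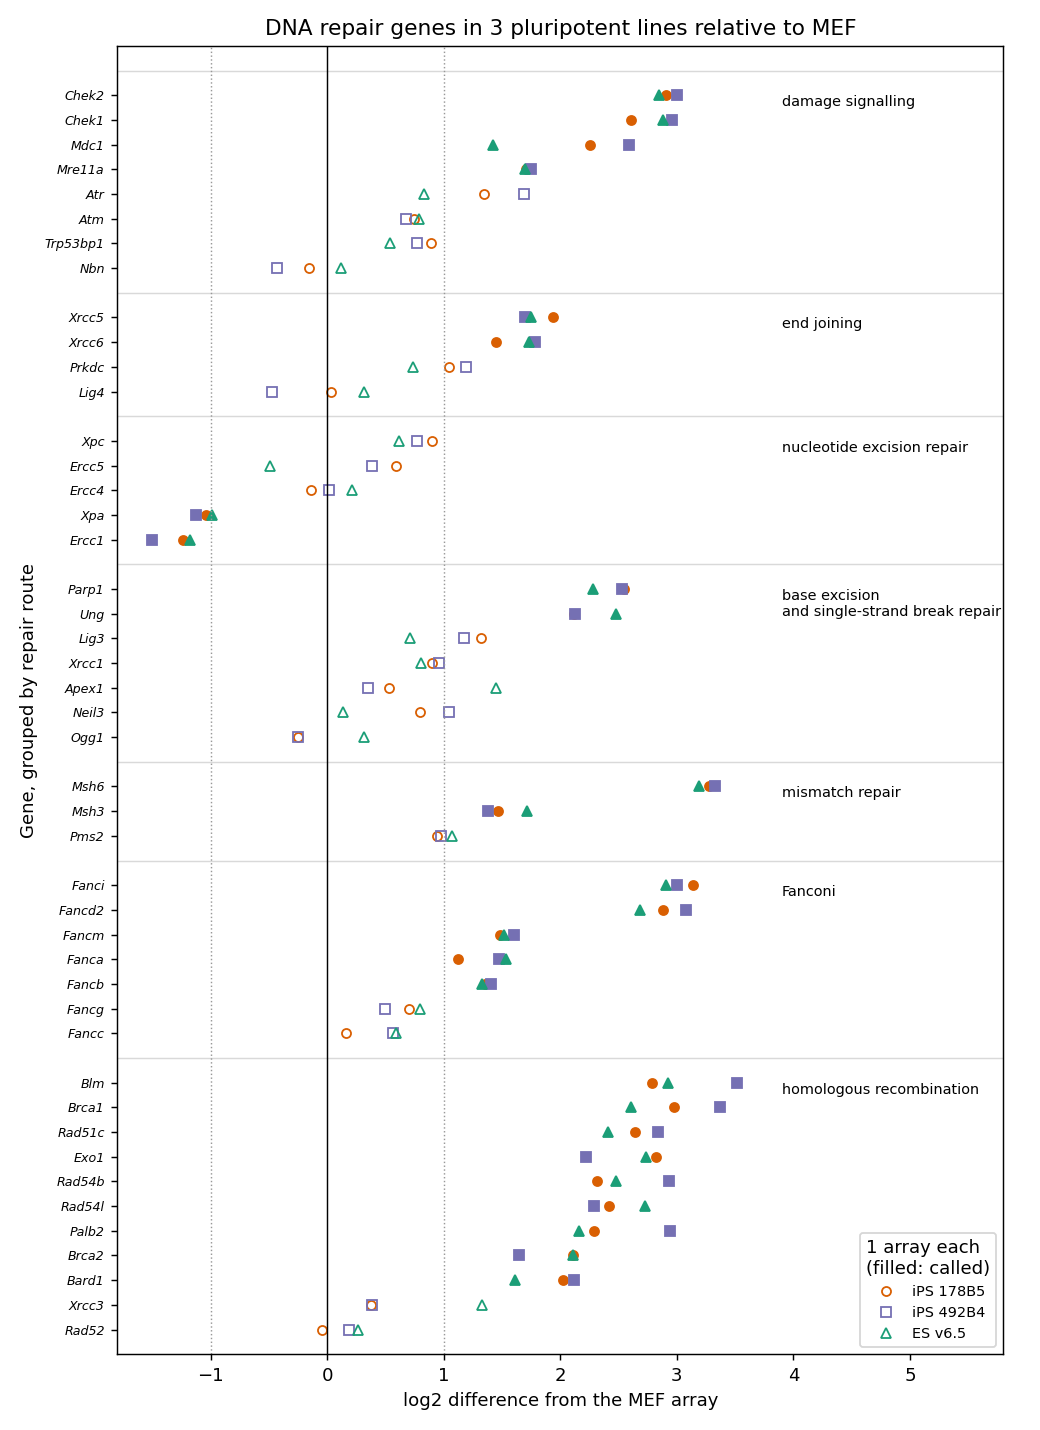
The log2 difference from the MEF array is plotted for each of the 45 measured repair genes, grouped by route, with 1 point per pluripotent line (1 array each), filled where the gene was called in the 3 lines against MEF. Of the 11 recombination genes 9 lie well above 1 log2 in all lines, while all 5 nucleotide excision genes lie below 1 log2, Xpc above 0 in every line and Ercc1 and Xpa near or below -1 log2.

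Promoters are shown because many of the members rose together, and because the stretch just upstream of a start site is where cell-cycle regulators of the E2F family are known to bind. RefSeq promoter windows (GRCm38.p6, 250 bases before to 50 after a start site, 300 in all) were found for 39 of the 45 genes. The E2F-type word TTTCCCGC, searched on both strands, was present for 8 of them: Bard1, Brca2, Chek2, Fancg, Mdc1, Msh6, Rad51c (in 1 of its 2 windows) and Xrcc6. Of those 8 genes 7 were called higher, and Fancg was not called. Among all 39 genes with a window 21 were called higher, and the word was present for 7 of these 21. Blm and Brca1, both called higher, lacked it. Per window, 19.0% of the 42 windows of these genes held the word, beside 1.07% of all 32851 windows and 1.52% of the 19177 windows of genes measured on the arrays. A second E2F-type word, TTTGGCGC, was present for Msh3 only, beside 0.514% of all windows. The words TTTGAA (CHR type) and CCAAT were found for 2 and 23 of the 39 genes, in 4.76% and 57.1% of their windows, beside 17.9% and 37.4% of all windows. No match overlapped another. A match describes letters and does not show that a factor binds. The 250 bases before the start are given for the 3 members with the largest rise and TTTCCCGC wholly before the start. They are also given for Ercc1, the member with the largest fall, which lacks the word, as do most members called higher. Capitals mark TTTCCCGC or its reverse complement, whose first base lies at position -152 from the start of Chek2, -16 from that of Mdc1 and -168 from that of Brca2. All 4 genes lie on the plus strand.
Chek2, chr5:110839733-110839982: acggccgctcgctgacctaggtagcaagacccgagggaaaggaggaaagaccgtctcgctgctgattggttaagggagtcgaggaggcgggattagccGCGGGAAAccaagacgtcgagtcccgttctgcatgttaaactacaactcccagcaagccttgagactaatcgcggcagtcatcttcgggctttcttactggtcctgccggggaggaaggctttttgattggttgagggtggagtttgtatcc
Mdc1, chr17:35841248-35841497: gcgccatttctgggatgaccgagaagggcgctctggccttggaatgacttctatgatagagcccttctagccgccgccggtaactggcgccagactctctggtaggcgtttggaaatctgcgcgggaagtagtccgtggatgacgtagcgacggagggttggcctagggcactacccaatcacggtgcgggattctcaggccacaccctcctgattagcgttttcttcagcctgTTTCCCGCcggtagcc
Brca2, chr5:150522371-150522620: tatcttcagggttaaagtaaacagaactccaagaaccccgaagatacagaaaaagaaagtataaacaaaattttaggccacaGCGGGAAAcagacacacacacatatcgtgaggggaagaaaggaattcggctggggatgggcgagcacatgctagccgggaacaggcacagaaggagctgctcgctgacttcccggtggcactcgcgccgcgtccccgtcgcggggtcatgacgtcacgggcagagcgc
Ercc1, chr7:19344821-19345070: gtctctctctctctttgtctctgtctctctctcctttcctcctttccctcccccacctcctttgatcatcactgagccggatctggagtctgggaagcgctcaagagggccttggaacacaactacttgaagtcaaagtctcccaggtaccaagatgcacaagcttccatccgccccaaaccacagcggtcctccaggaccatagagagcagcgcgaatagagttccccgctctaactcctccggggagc

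Among the members, homologous recombination showed the largest median of the 7 routes, at 2.48 log2, and 9 of its 11 genes rose. This ranking did not hold in the list of further repair genes given below. There the recombination median was 0.78 log2, with 8 of 24 genes higher. Damage signalling had the largest median in that list, at 1.45 log2, with 12 of 18 genes higher. Blm, a helicase that dissolves recombination intermediates, stood 2.79 log2 above MEF in iPS 178B5, 3.51 in iPS 492B4 and 2.92 in ES, a mean rise of 3.07 ± 0.39 log2 (SD, n = 3; limma adjusted p = 0.00904). All 3 lines lay well above MEF, with iPS 492B4 the highest. Brca1, a ubiquitin ligase subunit that steers breaks towards recombination, stood at 2.97, 3.37 and 2.60 log2 in the same order, a rise of 2.98 ± 0.38 log2 (adjusted p = 0.0092). Its partner Bard1 rose by 1.92 ± 0.27 log2 (adjusted p = 0.0123), and its 3 probe sets gave 1.58, 1.84 and 2.33 log2. Brca2, a mediator of recombination whose promoter is printed above, stood at 2.11, 1.65 and 2.10 log2, a rise of 1.95 ± 0.26 log2 (adjusted p = 0.0116). Palb2, which tethers BRCA2 to BRCA1, rose by 2.46 ± 0.42 log2 (adjusted p = 0.0152).

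Of the 6 genes of strand exchange, annealing and end resection, 4 rose. Rad51c, which acts in strand exchange, stood at 2.64, 2.84 and 2.41 log2, a rise of 2.63 ± 0.22 log2 (adjusted p = 0.00599). The translocases Rad54l and Rad54b, which help the search for homology, rose by 2.48 ± 0.22 and 2.58 ± 0.32 log2, and the gap between them (Rad54b minus Rad54l) was 0.10 ± 0.48 log2 over the 3 lines, within its own spread. Exo1, a nuclease that resects ends and also serves mismatch repair, rose by 2.59 ± 0.33 log2 (adjusted p = 0.00931). Rad52, an annealing protein, stood at -0.05, 0.19 and 0.26 log2 and was not called (adjusted p = 0.646). Xrcc3, which also acts in strand exchange, stood at 0.38 log2 in each iPS line and 1.33 log2 in ES and was not called in the 3 lines against MEF (0.70 ± 0.55 log2, adjusted p = 0.332). The recombination genes divided into 9 with rises between 1.92 and 3.07 log2 and 2 under 1 log2.

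In the Fanconi pathway 5 of 7 genes rose, with a median of 1.38 log2. Fanci and Fancd2 encode the clamp that is ubiquitinated at a crosslink. Fanci stood at 3.14, 3.0 and 2.91 log2, a rise of 3.02 ± 0.12 log2 (adjusted p = 0.00495). Fancd2 stood at 2.88, 3.08 and 2.68 log2, a rise of 2.88 ± 0.20 log2 (adjusted p = 0.00548), and the gap between the pair (Fanci minus Fancd2) was 0.14 ± 0.18 log2. Members of the core complex, the ligase that marks this clamp, had smaller differences. Fancm, the helicase that anchors the complex to DNA, rose by 1.53 ± 0.06 log2, and Fanca and Fancb rose by 1.38 ± 0.22 and 1.36 ± 0.04 log2. Fancg (0.66 ± 0.15 log2, adjusted p = 0.0642) and Fancc (0.44 ± 0.24 log2, adjusted p = 0.249) were not called.

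Mismatch repair held the gene with the largest rise of the 45. Msh6, which recognises single mismatches, stood at 3.28, 3.33 and 3.19 log2, a rise of 3.27 ± 0.07 log2 or 9.63-fold (adjusted p = 0.00479). All 3 lines lay far above MEF and close to one another. Msh3, which recognises larger loops, stood at 1.47, 1.38 and 1.71 log2, a rise of 1.52 ± 0.17 log2 (adjusted p = 0.0116), and Msh6 exceeded it by 1.75 ± 0.24 log2. Pms2, an endonuclease of this route, stood at 0.95, 0.98 and 1.07 log2, and its mean of 0.9985 log2 (adjusted p = 0.015) fell just short of the minimum of 1 log2. It was called with each array's median set equal (1.07 log2, adjusted p = 0.0123).

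Base excision and single-strand break repair had 2 of 7 genes higher and a median of 0.89 log2. Parp1, which senses single-strand breaks and builds poly(ADP-ribose), stood at 2.54, 2.53 and 2.28 log2, a rise of 2.45 ± 0.15 log2 (adjusted p = 0.00549). Ung, the glycosylase that removes uracil from DNA, stood at 2.12, 2.13 and 2.47 log2, a rise of 2.24 ± 0.20 log2 (adjusted p = 0.00705). Both genes were above MEF in every line. The scaffold Xrcc1 (0.89 ± 0.08 log2, adjusted p = 0.0199) stayed under the fold minimum. Its ligase Lig3 (1.07 ± 0.32 log2, adjusted p = 0.0599) passed the minimum but not the test, and the iPS lines alone gave 1.25 log2 (adjusted p = 0.00914, called). The other glycosylases and the endonuclease gene differed less between lines and MEF, or differed among the lines. Ogg1, which removes oxidised guanine, stood at -0.25, -0.25 and 0.31 log2, and Neil3 at 0.80, 1.05 and 0.14 log2. Apex1, the main abasic-site endonuclease, stood at 0.53, 0.35 and 1.45 log2. None of them was called in the 3 lines against MEF (limma adjusted p = 0.901, 0.293 and 0.316). Apex1 was called in ES against MEF taken alone, as given below.

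Among the members, nucleotide excision repair was the 1 route with no rise: 0 of 5 genes were higher and 2 were lower in limma's test. Its median of 0.03 log2 was -0.13 log2 with arrays centred on reference genes. By line its median was -0.14 log2 in iPS 178B5, 0.02 log2 in iPS 492B4 and -0.49 log2 in ES. At an unadjusted p under 0.05 1 of its genes was higher, Xpc. Ercc1, the partner subunit of the ERCC1-XPF nuclease that cuts on the upstream side of a lesion, stood at -1.23, -1.51 and -1.17 log2, a fall of 1.30 log2 (SD 0.18, n = 3; adjusted p = 0.0158). Xpa, which holds the repair complex on damaged DNA, stood at -1.04, -1.12 and -0.99 log2, a mean of -1.05 ± 0.07 log2 (adjusted p = 0.0136). MEF lay above every line in both genes. Neither was called without iPS 178B5 (adjusted p = 0.0692 and 0.0782), and Xpa stood at -0.98 log2, under the minimum, with each array's median set equal. Ercc4, which encodes the catalytic XPF subunit, stood at -0.14, 0.02 and 0.21 log2 and was not called (0.03 log2, adjusted p = 0.928). Xpc, the lesion sensor of this route, had 0.76 ± 0.14 log2 (adjusted p = 0.0431), and the downstream nuclease gene Ercc5 stood at 0.59, 0.39 and -0.49 log2 (adjusted p = 0.839).

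End joining was split by step. The Ku subunits, which grip the broken ends, both rose: Xrcc5 (Ku80) stood at 1.94, 1.69 and 1.75 log2, a rise of 1.79 ± 0.13 log2 (adjusted p = 0.00717), and Xrcc6 (Ku70) rose by 1.65 ± 0.18 log2 (adjusted p = 0.0107). Their gap (Xrcc5 minus Xrcc6) was 0.14 ± 0.31 log2. Prkdc, the kinase that Ku recruits, stood at 1.04, 1.19 and 0.73 log2, and its mean of 0.99 ± 0.23 log2 (adjusted p = 0.043) missed the fold minimum. With equal array medians it passed at 1.06 log2 (adjusted p = 0.0456), and the iPS lines alone gave 1.12 log2 (adjusted p = 0.0117, called). Lig4, the ligase of the last step, stood at 0.03, -0.48 and 0.31 log2 and was not called (-0.04 ± 0.40 log2, adjusted p = 0.942). Xrcc5 exceeded Lig4 by 1.91, 2.17 and 1.44 log2 in the 3 lines.

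Among damage signalling genes 4 of 8 rose and the median was 1.50 log2. By line the median was 1.52 log2 in iPS 178B5, 1.72 log2 in iPS 492B4 and 1.12 log2 in ES. The checkpoint kinase genes moved most. Chek2, which acts below ATM, stood at 2.91, 3.0 and 2.85 log2, a rise of 2.92 ± 0.08 log2 (adjusted p = 0.00495). Chek1, which acts below ATR, stood at 2.61, 2.96 and 2.88 log2, a rise of 2.82 ± 0.18 log2 (adjusted p = 0.00548). The 2 kinases differed by 0.10 ± 0.17 log2 in their change. The kinases above them moved less: Atr stood at 1.34, 1.69 and 0.83 log2 (1.28 ± 0.43 log2, adjusted p = 0.0716) and Atm at 0.75, 0.68 and 0.79 log2 (0.74 ± 0.06 log2, adjusted p = 0.0274, under the fold minimum). With the ES array left out, which is the same fit as iPS against MEF given below, Atr stood at 1.51 log2.

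The break sensors and adaptors varied. Mre11a, the nuclease of the MRE11-RAD50-NBN complex that first binds breaks, stood at 1.71, 1.75 and 1.70 log2, a rise of 1.72 ± 0.03 log2 (adjusted p = 0.00596). Nbn, of the same complex, stood at -0.16, -0.43 and 0.12 log2 and missed the threshold (adjusted p = 0.695). Its 2 probe sets gave means of -0.08 and -0.23 log2. Mdc1, which spreads the alarm along chromatin, stood at 2.26, 2.59 and 1.42 log2, a rise of 2.09 ± 0.60 log2 (adjusted p = 0.0455). Its p lay close to the threshold, and it missed it with equal array medians (0.0515), with reference centring (0.0513), without iPS 178B5 (0.122) and without iPS 492B4 (0.067). Trp53bp1, which favours end joining over resection, had 0.73 ± 0.18 log2 and was not called (adjusted p = 0.0605).

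Genes whose products work as a pair or complex were then set side by side, in groupings chosen after the values were seen, with the other repair genes added where they complete a complex. The partner gap was smaller than its spread for FANCI with FANCD2, for the 2 Ku subunits, for BRCA2 with PALB2 (Palb2 minus Brca2, 0.51 ± 0.68 log2) and for LIG3 with XRCC1 (Lig3 minus Xrcc1, 0.18 ± 0.26 log2), the last a pair in which neither gene was called. Lig4, Xrcc4 and Nhej1, the ligation complex of end joining, had differences between -0.04 and 0.07 log2. In others 1 partner stood apart. Within the MRE11 complex Mre11a and Rad50 rose by 1.72 and 1.67 log2, and Mre11a exceeded Nbn by 1.86, 2.18 and 1.58 log2 in the 3 lines. Ercc4 exceeded Ercc1 by 1.33 ± 0.22 log2, Brca1 exceeded Bard1 by 1.06 ± 0.16 log2, and within the 9-1-1 clamp, which loads ATR activators, Hus1 (1.94 log2) and Rad1 (1.84 log2) rose while Rad9a stood at 0.66 log2 and was not called. These gaps compare changes, and probe sets can differ in how strongly they respond, a part that was not tested. The Bard1 probe sets gave 1.58, 1.84 and 2.33 log2, beside 2.98 log2 for Brca1. The SD of the Brca1 and Bard1 gap is over lines and leaves this spread out.

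**Figure D2:**
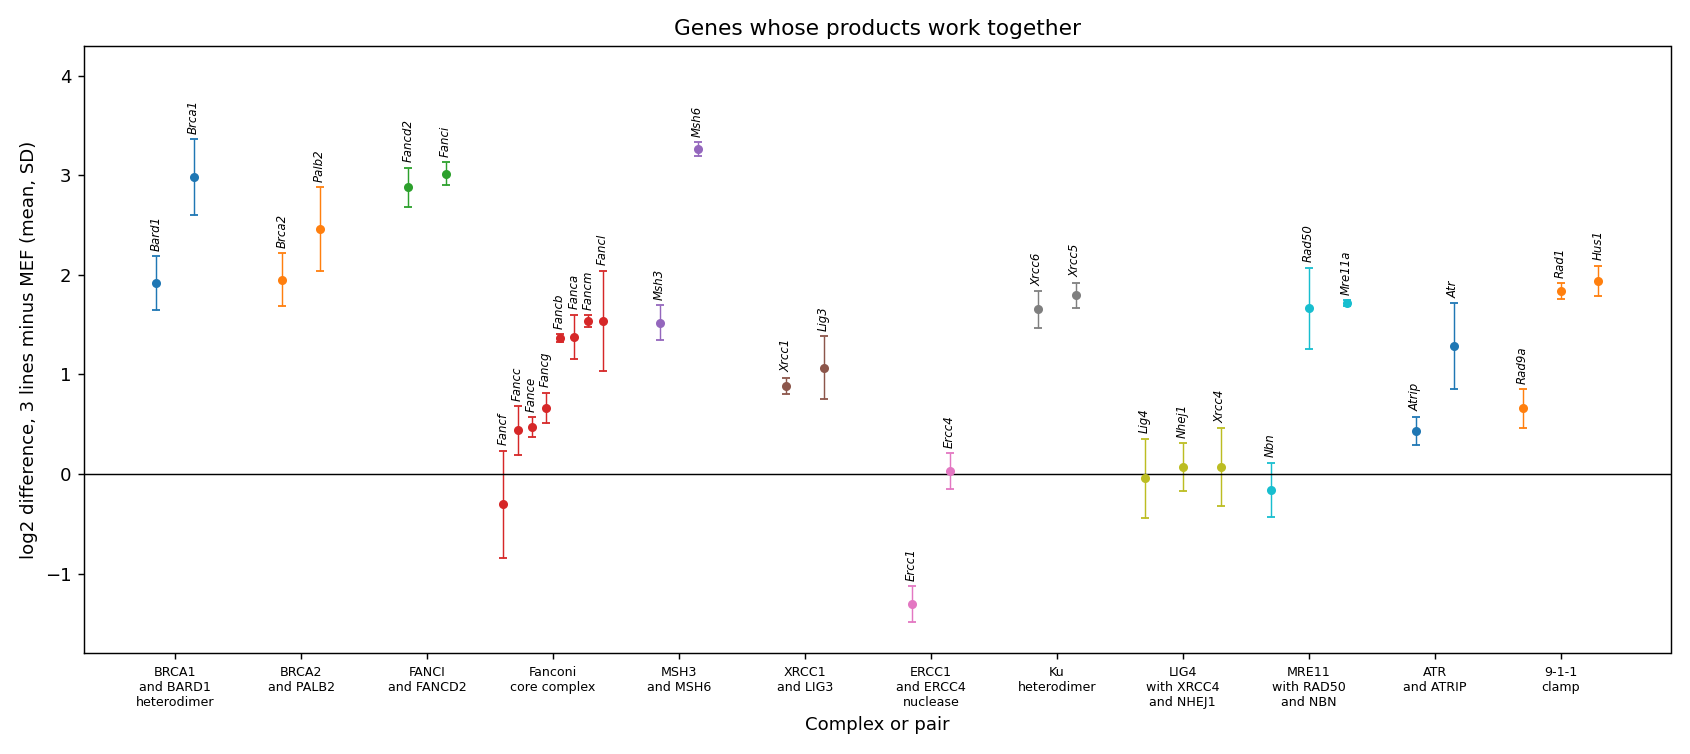
The mean log2 difference of the 3 pluripotent lines from MEF is plotted for genes of 12 complexes or pairs, with the SD over the 3 lines as error bars. Fanci with Fancd2 and Xrcc5 with Xrcc6 lie close together, whereas Nbn lies near 0 below Mre11a and Rad50, and Ercc1 lies below Ercc4.

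A list of 109 further repair genes was read in the same way, and 95 of them were measured. Of these 31 (32.6%) rose and 1 fell, beside 7.90% and 9.71% of all genes, and their median was 0.67 log2. Without iPS 178B5 the number called was 12. By route, 12 of 18 damage signalling genes rose, 8 of 24 for homologous recombination, 4 of 15 for base excision and single-strand break repair, 3 of 12 for the Fanconi pathway, 3 of 17 for nucleotide excision, 1 of 4 for mismatch repair and 0 of 5 for end joining in limma's test (1 at an unadjusted p under 0.05). Rif1, which limits resection and shapes replication timing, showed the largest rise, at 3.74, 3.69 and 3.80 log2 in the 3 lines (mean 3.75 log2, adjusted p = 0.00398). Etaa1, an activator of ATR, rose by 2.42 log2, and Hus1 and Tipin rose by 1.94 and 1.93 log2. In recombination Dmc1, a recombinase known from meiosis, rose by 2.70 log2, the nuclease gene Eme1 by 2.43 log2, Hrob by 2.27 log2 and Mms22l by 2.22 log2.

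In the Fanconi pathway Ube2t, the conjugating enzyme for the FANCI-FANCD2 clamp, rose by 2.39 log2, the helicase gene Brip1 by 1.49 log2 and Usp1, which removes the ubiquitin again, by 1.11 log2. In mismatch repair Pms1 rose by 2.01 log2. Msh4 and Msh5, which act at meiotic crossovers, were counted under this route and stood at 0.07 and 0.02 log2. In base excision Mbd4, a thymine glycosylase at methylated sites, rose by 2.23 log2, Tdp2 by 1.47 log2, Parp2 by 1.38 log2 and Tdp1 by 1.05 log2. Parp3 was the gene that fell, at -3.66, -3.89 and -2.90 log2 in the 3 lines (mean -3.48 log2, adjusted p = 0.0112). In nucleotide excision Gtf2h4, a TFIIH subunit, rose by 1.36 log2, Xab2 by 1.20 log2 and Ercc8, a sensor of stalled transcription, by 1.06 log2.

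Genes of cell division moved with the repair genes. In the DNA replication list 30 of 39 genes rose and 0 fell in limma's test (0 lower at an unadjusted p under 0.05), with a median of 1.90 log2, and in the mitosis list 20 of 22 rose, with a median of 1.66 log2. Mcm10, which starts replication forks, rose by 2.87 log2 and Bub1, a spindle checkpoint kinase, by 3.0 log2. The medians of the replication list were 1.77, 1.72 and 2.03 log2 in the 3 lines, beside 1.36, 1.48 and 1.45 log2 for the 45 repair genes. Of 17 measured p53 target genes 0 rose in limma's test (1 at an unadjusted p under 0.05) and 1 fell (Fas, at -2.34 log2), with a median of -0.03 log2. Taken apart, iPS against MEF gave 1 higher and 1 lower with a median of 0.18 log2, and ES against MEF gave 0 higher (2 at an unadjusted p under 0.05) and 4 lower with a median of -0.24 log2. By limma 0 of the 17 were called in iPS against ES, as were 0.00% of all genes. Their median for iPS minus ES was 0.48 log2, beside -0.06 log2 over all genes. For the replication and mitosis lists it was -0.15 and 0.18 log2. The part of cell cycle genes in the repair gene values was not tested.

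**Figure D3:**
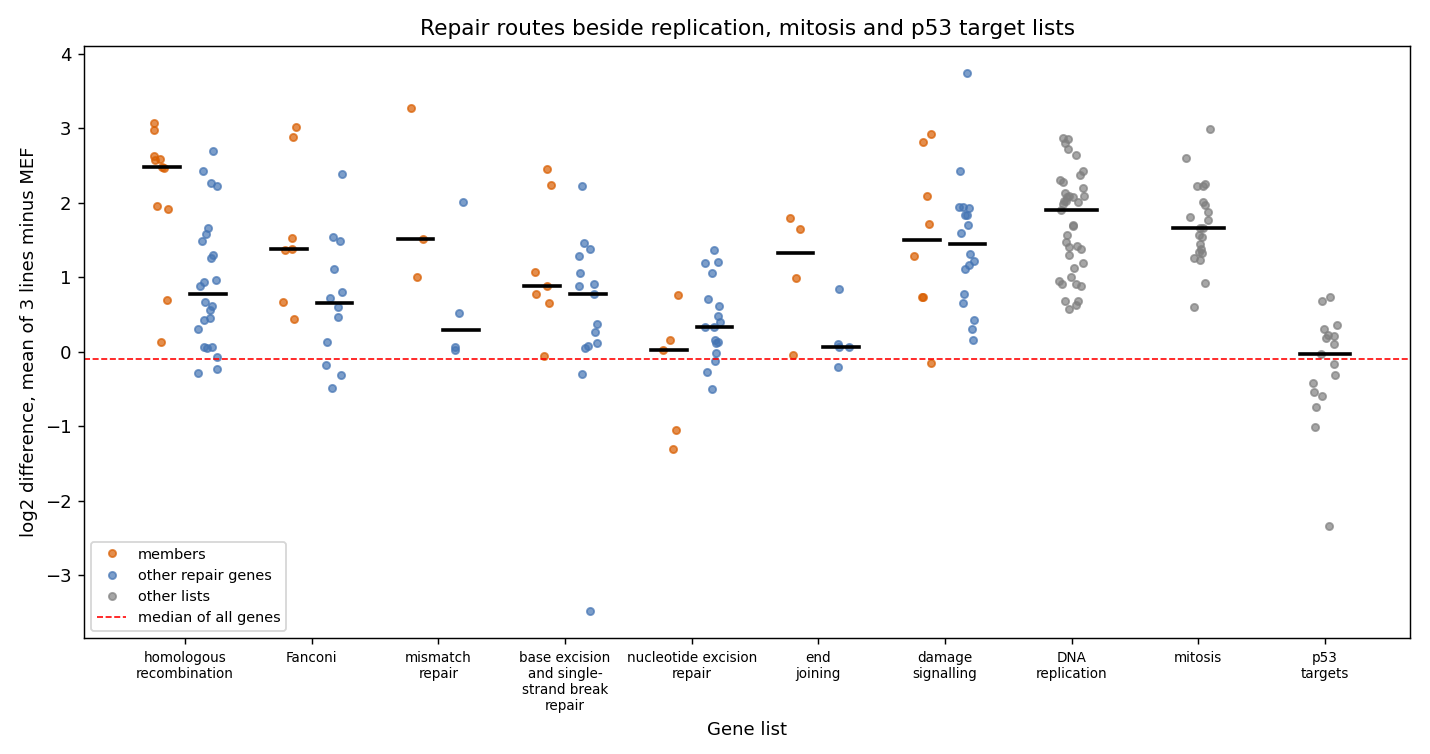
Each point is 1 gene's mean log2 difference of the 3 pluripotent lines from MEF, with a black bar at the median of each list and a dashed line at -0.10 log2, the median of all genes. The median of the recombination members is 2.48 log2 and that of the replication list 1.90 log2, with overlapping genes and no test between them. The nucleotide excision members and the p53 target genes have medians near 0. Other repair genes are plotted beside the members of each route, with medians of 0.78 log2 for recombination and 0.34 log2 for nucleotide excision.

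Taken apart, iPS and ES cells gave similar counts against MEF. In the fit with 3 groups, 27 genes were higher and 2 lower in iPS against MEF (all genes: 9.94% and 11.2%, or 21.1% either way), and 27 were higher and 1 lower in ES against MEF (all genes: 9.14% and 10.9%, or 20.0% either way). These comparisons share the MEF array, and their spread comes from the 2 iPS lines alone. ES against MEF sets 1 array against 1, so its p-values hold no spread within either group. For Xrcc3 the 2 iPS lines differed by only 0.004 log2. Pms2 (1.07 log2, adjusted p = 0.0184), Xrcc3 (1.33 log2, adjusted p = 0.0123) and Apex1 (1.45 log2, adjusted p = 0.0135) were called higher in ES but not in iPS, and Atr (1.51 log2, adjusted p = 0.0114), Lig3 (1.25 log2, adjusted p = 0.00914) and Prkdc (1.12 log2, adjusted p = 0.0117) in iPS but not in ES. Xpa was called lower in iPS only (-1.08 log2) and stood at -0.99 log2 in ES. Such a split does not show that the groups differ. The next comparison sets the groups against each other, but it called 0.00% of all genes and so cannot decide this for the members.

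iPS cells, made from somatic cells, were next set against the ES line, which comes from an embryo. By limma 0 of the 45 genes were called, as were 0.00% of all genes, and at an unadjusted p under 0.05 9 of the 45 passed, beside 15.4% of all genes. The widest differences were in Apex1, at -1.01 log2 for iPS minus ES (95% interval -1.45 to -0.58, adjusted p = 0.152), Mdc1, at 1.00 log2 (0.45 to 1.55, adjusted p = 0.188), Ercc5, at 0.98 log2 (0.53 to 1.43, adjusted p = 0.163) and Xrcc3, at -0.95 log2 (-1.33 to -0.57, adjusted p = 0.141). The intervals assume that the lone ES array varies like the 2 iPS lines. In 10 of the 45 genes (22.2%) the difference was at least 0.5 log2 either way, 6 higher in iPS and 4 higher in ES, beside 14.7% of all genes. Msh6 (0.11 log2, -0.27 to 0.49), Mre11a (0.03 log2, -0.35 to 0.42) and Chek2 (0.11 log2, -0.29 to 0.51) had differences near 0. Over the same arrays the fibroblast markers had a median of -1.90 log2 and the primitive endoderm markers 1.05 log2 for iPS minus ES, and strain differed too; their part in these values was not tested.

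Between the iPS lines, 492B4 minus 178B5 gave at least 0.5 log2 either way in 5 of the 45 genes (11.1%), beside 6.96% of all genes. Blm stood 0.73 log2 higher in 492B4, Palb2 0.65 and Rad54b 0.62 log2 higher, and Exo1 (-0.60 log2) and Lig4 (-0.51 log2) lower. In 27 of the 45 genes (60.0%) 492B4 was the higher line, beside 46.8% of all genes. With 1 array each there is no test of these differences.

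**Figure D4:**
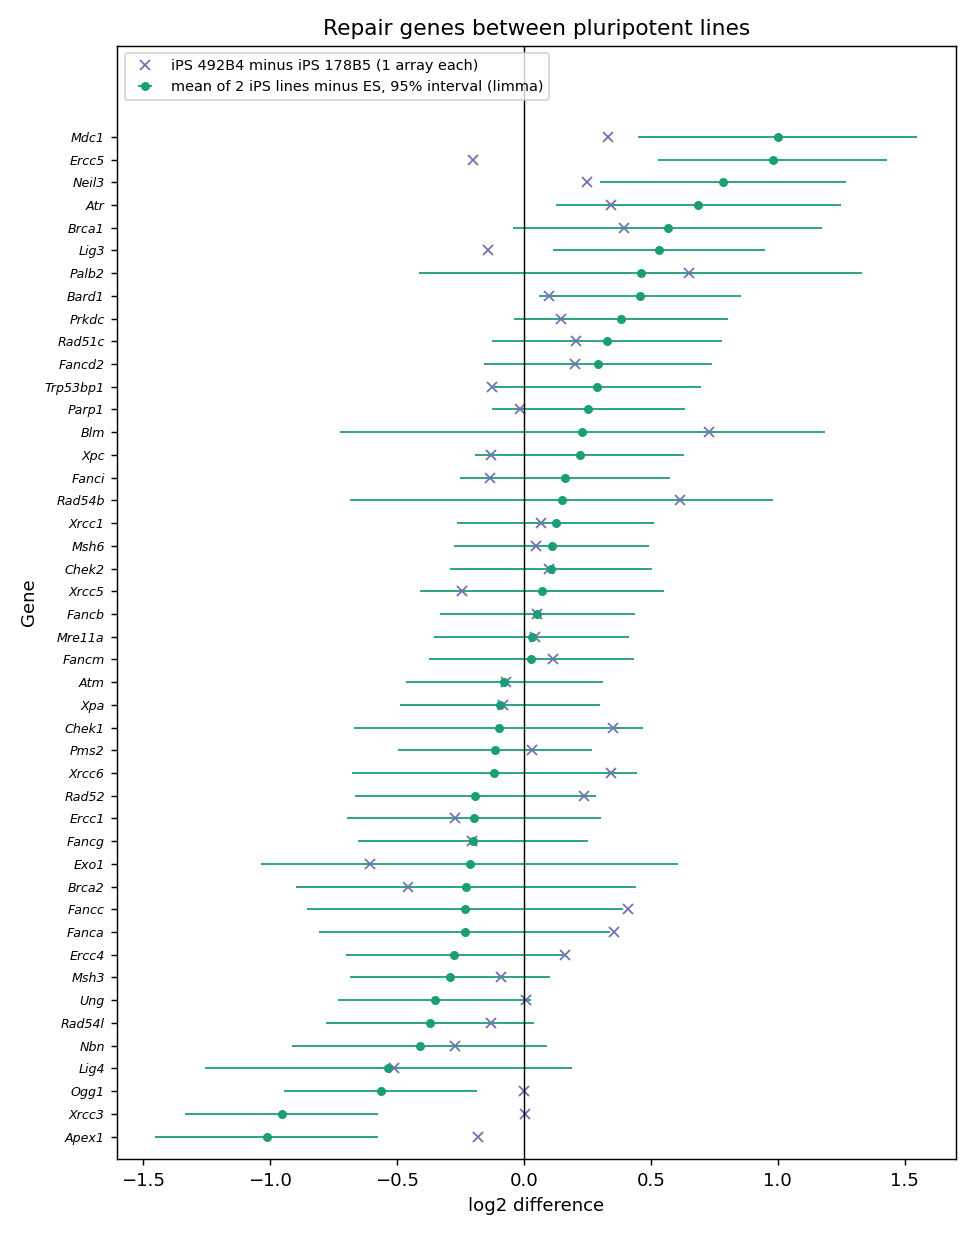
For each of the 45 repair genes the mean of the 2 iPS lines minus ES is plotted in log2 with its 95% interval from limma, and a cross marks iPS 492B4 minus iPS 178B5, 1 array each. Mdc1 and Ercc5 lie near 1 log2 and Apex1 and Xrcc3 near -1 log2, while most other intervals span 0.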

How the data were processed

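One deposited table held 28853 probe sets on 4 one-colour Affymetrix arrays. Its values are on a log scale, taken as log2; per the submitters' processing notes the authors used GCRMA, which corrects background, normalizes arrays and summarises probes (version not given in the sources used here). Each probe set's deposited log2 values had a median of 0 over the 4 arrays, so levels are lost and no filter on dim probes could be applied; the number of arrays limits precision. Probe sets with 1 gene symbol in the platform annotation (21789) were averaged per gene, and 43 of the 45 measured members had 1 probe set. Models were fitted to 19938 genes with limma 3.58.1 in R 4.3.3 (lmFit, eBayes, Benjamini-Hochberg), either as the 3 lines against MEF (2 residual degrees of freedom, the lone MEF array assumed to vary like the lines) or as MEF, iPS and ES (1 residual degree of freedom, given by the pair of iPS lines, with the lone MEF and ES arrays assumed to vary like them). A call needs an adjusted p under 0.05 and at least 1 log2. SDs are over the 3 lines. No slide or scan batch was given. Any member may be named; of the other repair genes up to 4 called per route and direction are named by size, of other lists up to 3, and any gene a result turns on. The members and all lists were chosen with earlier results of these data known, and the complexes and partner pairs after the values of the members were seen. Alternatives were equal array medians, centring on 12 reference genes, the probe set of widest range, robust moderation, no fold minimum and leaving out each line.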

Additional observations from a re-analysis of the deposited data

Results flagged for a closer look

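In 3 genes both iPS lines lay on one side of MEF and the ES line on the other. For iPS minus ES, Ercc5 stood at 0.98 log2, Ogg1 at -0.56 log2 and Nbn at -0.41 log2; limma's test of this difference gave adjusted p of 0.163, 0.235 and 0.39, so none passed.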

How the results depend on the processing

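The number of repair genes called in the 3 lines against MEF was 25 to 31 under the settings that kept all lines, and 18 to 29 with 1 line left out. The number of other repair genes called was 12 to 37 with 1 line left out, the lowest without iPS 178B5, where 1357 of all genes were called instead of 3512. Setting the array medians equal gave a median over the 45 genes of 1.45 log2 and of homologous recombination of 2.55 log2; all-gene calls were then 1700 higher and 1730 lower, against 1576 and 1936. Of the 12 reference genes 2 were themselves called higher and 2 lower in the 3 lines against MEF (33.3%, beside 17.6% of all genes). With reference centring the medians were 1.22 log2 for the 45 genes, 2.32 for homologous recombination, 1.22 for Fanconi, 0.73 for base excision and 1.16 for end joining. All-gene calls were then 1252 higher and 2392 lower. These shifts follow from the constants that the settings add. Leaving out 1 line gave medians of 1.34 to 1.50 log2 for the 45 genes, 2.40 to 2.52 for homologous recombination and 1.34 to 1.50 for Fanconi. The widest probe set and robust moderation changed no member's call. Leaving out ES gives the same fit as iPS against MEF above, so it is not a separate result. Leaving out a line leaves the 3-group fit without residual degrees of freedom or without a group, so it was not run there. No paired analysis was possible because the labels give no replicate numbers and the groups share fewer than 2.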

Other observations

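The genes named here were chosen after their values were seen. Some repair genes that are known mainly from meiosis or the testis were on the list of further genes, and not all of the 4 named here were called. Dmc1 rose by 2.70 log2 (SD 0.64, n = 3 lines; limma adjusted p = 0.0277), with 2.90, 3.21 and 1.98 log2 in iPS 178B5, iPS 492B4 and ES, and Rad9b rose by 1.83 log2 (SD 0.24, adjusted p = 0.0116). Msh4 and Msh5, which act at meiotic crossovers, stood at 0.07 and 0.02 log2 and were not called. Of the opposing regulators of the cell cycle kinase that a checkpoint acts on, the inhibitory kinase gene Wee1 rose by 1.59 log2 and the activating phosphatase gene Cdc25a by 1.71 log2.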
